A study of Mus musculus with 9 samples.

Results

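The genes described here make, use and regulate glutathione and thioredoxin, the small thiol systems with which cells remove peroxides and reactive chemicals. They were chosen by a rule on symbols, set with earlier results of these data known. It took every measured gene whose symbol begins with Gst (classes a, k, m, o, p, t and z), Mgst, Gpx, Prdx or Txn, together with Gclc, Gclm, Gsr, Gss, Nqo1, Hmox1, Sod2, Sod3, Srxn1, Nfe2l2 and Keap1. The rule found 67 of the 14507 genes measured. Of these, 5 were found under an older array symbol that begins with Txndc and are given by their present names, Erp44, Nme8, Tmx1, Tmx2 and Tmx3. Sod1, Txn1 and Mgst2 were not analysed here. The study compared compartments of mouse tail epidermis that were dissected by hand: hair follicle (HF), sebaceous gland (SG) and, between the follicles, the interfollicular epidermis (IFE). All mice were adult wild-type females of C57BL6/CBA background, matched for age, and no group was treated. Each compartment had 3 biological replicates, each from pooled pieces, which gave 9 exon arrays. The labels do not say how many animals a pool held, so p-values measure the spread between pools.

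Glutathione is built by glutamate-cysteine ligase (Gclc, Gclm) and glutathione synthetase (Gss), and glutathione reductase (Gsr) returns its oxidised form with electrons from NADPH. Glutathione peroxidases use it to reduce peroxides, and glutathione transferases couple it to electrophiles such as the aldehydes of oxidised lipids. Peroxiredoxins reduce peroxides with electrons from thioredoxin, which thioredoxin reductases recharge. The transcription factor Nrf2, encoded by Nfe2l2 and held down by Keap1, switches on many of these genes. Sebocytes, the cells of the sebaceous gland, fill with lipid and burst to release sebum, while the hair follicle builds a shaft rich in disulfide bonds and the interfollicular epidermis builds the barrier of the skin surface.

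The value of a gene on an array is its log2 intensity, the median over the probe sets (exon-level units) that carry only its symbol. A member rested on a median of 6 probe sets and 474 served the 67 members. Gpx2, Gstm1, Gstm6, Gstm7, Gstp1, Prdx2 and Tmx2 rested on 1 each, and Gpx4, Gstm2, Sod2 and Txndc8 on 2. The Gstm, Gsta and Gstp genes have close relatives, and whether a probe set also binds a relative was not tested. A difference was called at an adjusted p under 0.05 (limma, Benjamini-Hochberg over all 14507 genes) together with a log2 difference of 1 or more in size, a 2-fold ratio. Differences are given with the standard error (SE) of that fit, from 3 arrays in each group. In bulk tissue, more cells of a type and more RNA per cell cannot be told apart.

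The array name in each description names another compartment than the title for 9 of 9 arrays, so groups were taken from the titles and checked against marker genes. The mean log2 intensity of 14 sebocyte markers was 9.72 to 10.21 in the SG arrays, 8.21 to 8.62 in HF and 7.06 to 7.41 in IFE. Of these 14, 11 were called higher in SG than in IFE and 1, Dgat2, lower (-1.91, limma adjusted p = 0.000111). For 14 markers of the hair shaft and inner root sheath the HF arrays lay at 11.11 to 11.79 and the IFE arrays at 6.78 to 6.85, whereas SG replicates 1, 2 and 3 lay at 7.36, 7.57 and 9.94. By these hair values, SG replicate 3 carried more hair signal than its replicates. The 8 suprabasal IFE markers measured lay at 11.70 to 12.04 in IFE and at 11.00 to 11.36 in the other arrays. Against IFE, 4 of these 8 were called lower in SG and 3 in HF, while Krt77 was called higher in both. HF replicate 2 had the highest sebocyte value of the HF arrays (8.62 against 8.21 and 8.24) and the highest suprabasal value (11.36 against 11.00 and 11.05). Of the markers of other cells, the 9 Langerhans cell markers lay at 6.90 to 7.07 in HF and at 7.37 to 7.75 in the other arrays. Of 8 adipocyte markers, Fabp4 was called higher than in IFE both in HF (7.14) and in SG (2.13, with SG replicate 3 at 8.41 against 6.02 and 5.83). Another adipocyte marker, Lipe, was called lower in SG than in IFE. Called higher in HF than in IFE were 1 of 7 dermal markers (Dcn), 1 of 7 muscle markers (Acta2) and 2 of 7 myeloid markers (S100a8 and S100a9). The median differences of these lists were 0.16, 0.10 and 0.11. Of 6 T cell markers, 1 (Thy1) was called lower. The dermal list lay at 7.52 to 7.59 in HF and at 7.33 to 7.82 in SG. Between SG and HF, the dermal marker Vim was called higher in SG and Acta2 lower. In SG, S100a8 was called higher and Cd68 lower than in IFE. The 12 resting hair follicle markers measured lay at 8.61 to 8.86 in SG, 8.82 to 8.96 in HF and 7.45 to 7.53 in IFE, so SG and HF overlapped and IFE lay below both. The 9 basal keratinocyte markers lay at 9.55 to 9.88 in both appendages and at 10.30 to 10.71 in IFE. The 7 melanocyte markers measured lay at 6.99, 7.64 and 8.01 in SG, at 7.26 to 7.41 in HF and at 6.73 to 7.25 in IFE. Of them, Pmel was called higher in SG than in IFE, and Kit and Mitf higher in HF than in IFE. Mitf was also called lower in SG than in HF. The part of these cells in the results below was not tested. Without SG replicate 3 and HF replicate 2, 1 of the 26 calls described below was lost, that of Gstm2 between SG and HF (1.05, limma adjusted p = 0.135). Others were gained. Members lower in HF than in IFE went from 4 to 6, beside 487 to 611 over all genes. Those lower in SG than in IFE went from 3 to 4 (1009 to 1305), and than in HF from 2 to 3 (479 to 684). Gains included Prdx5 against IFE in SG (-1.04) and HF (-1.06), and Gpx1 (1.08) and Mgst3 (-1.07) in SG against HF.

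SG held more Gpx2, Mgst1, Gsta3, Gpx4, Gstp1 and Gstz1 than IFE, and less Erp44, Nfe2l2 and Tmx3. These 6 higher members are 8.96% of the 67, beside 2.54% of all genes called higher in SG, and the 3 lower members are 4.48%, beside 6.96% of all genes called lower. HF held more Gpx2, Mgst3, Txnrd1, Txndc5 and Gpx3 than IFE, and less Gsta4, Prdx6, Gpx1 and Erp44. The 5 higher members are 7.46%, beside a background of 2.96%, and the 4 lower members are 5.97%, beside 3.36%. Between the appendages, SG held more Mgst1, Gsta3, Gsta4, Gstz1, Gstm2 and Gpx4 than HF and less Txndc5 and Txnrd1. Here the 6 higher members are 8.96%, beside 1.81% of all genes, and the 2 lower members are 2.99%, beside 3.3%. The median log2 difference of the members was 0.07 for SG against IFE, -0.07 for HF against IFE and 0.05 for SG against HF, beside -0.06, -0.07 and -0.02 over all genes. The members called thus stood out from a group whose centre lay near that of all genes. Quantile normalization moved the median of all genes between SG and IFE to 0.16 and the split of calls there from 368 higher and 1009 lower to 613 and 474; of the members, 8 were then higher and 1 lower. In all, 17 members were called in at least 1 comparison, 50 in none and 0 in all 3. The matching shares of all genes were not computed, so these counts have no background beside them.

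**Figure D1:**
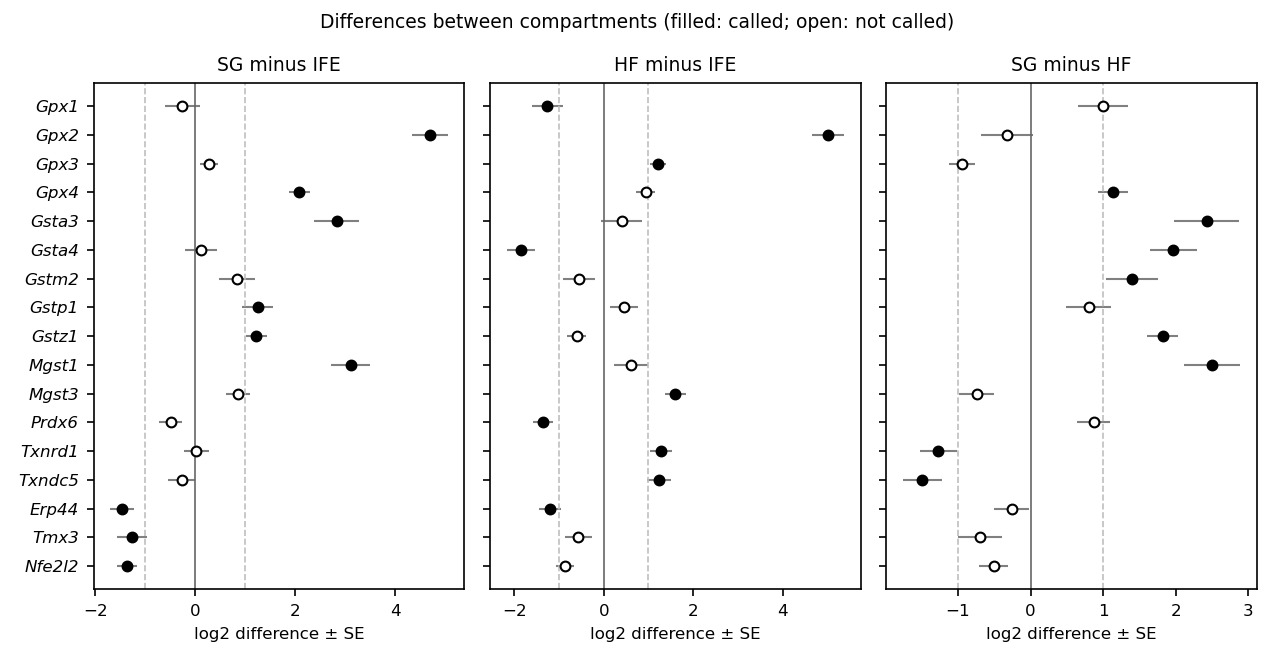
Log2 differences (x axis, with the SE of the limma fit) of the 17 members called in at least 1 comparison, for SG minus IFE, HF minus IFE and SG minus HF. Filled points were called and open points were not, dashed lines mark a difference of 1 in either direction, and the panels have different x scales. Gpx2 lies at 4.69 and 5.01 in the panels against IFE.

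**Figure D2:**
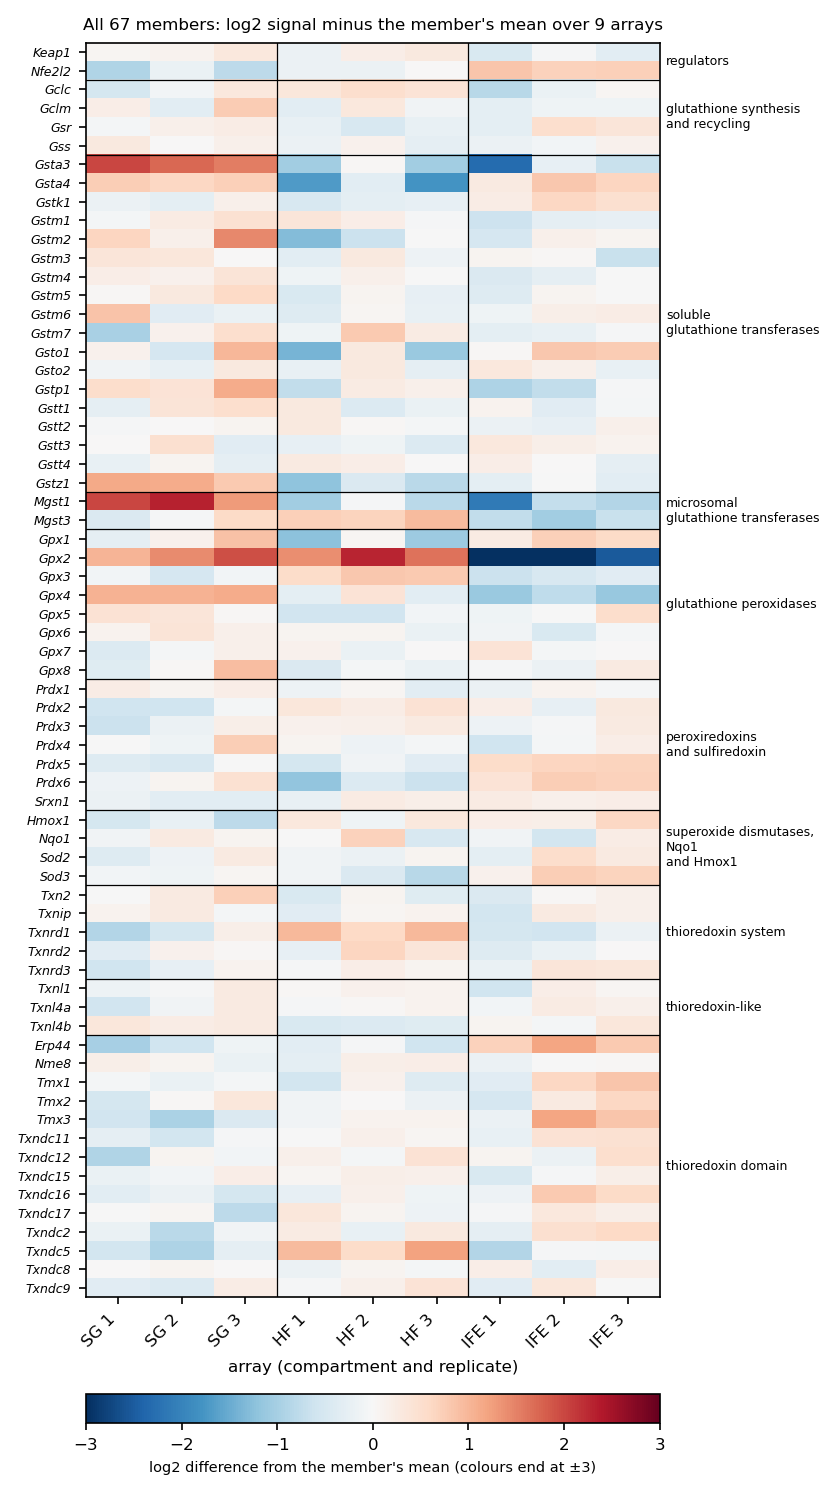
Each line is 1 of the 67 members, grouped by role, and each column 1 array; colour is the log2 intensity minus the member's mean over the 9 arrays, ending at ±3. Most lines are pale, and the strongest contrasts are Gpx2 (low in IFE), Mgst1 and Gsta3 (high in SG) and Gsta4 (low in HF replicates 1 and 3).

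Among the regulators, Nfe2l2 was lowest in SG. Its log2 intensity was 8.22, 8.93 and 8.34 in SG replicates 1 to 3, 8.94, 8.94 and 9.12 in HF, and 9.94, 9.80 and 9.84 in IFE. Every IFE array lay above every other array, and the highest SG array (8.93) lay just below the lowest HF arrays (8.94). SG was 2.58-fold lower than IFE, a log2 difference of -1.36 ± 0.20 (SE) (limma adjusted p = 0.000594). HF against IFE gave -0.86 ± 0.20 (limma adjusted p = 0.0142), short of the size threshold. The 7 probe sets of Nfe2l2 did not move alike. Between SG and IFE 6 were lower and 1 higher, from -1.79 to 0.38 with a median of -0.80. The call was lost with the mean over probe sets (-0.80), with the brightest probe set (-0.58) and under quantile normalization (-0.97), each time because the difference fell short of 1. Keap1, the adaptor that targets Nrf2 for degradation, was not called, with 0.43 ± 0.19 for SG against IFE and 0.37 ± 0.19 for HF against IFE. Its 7 probe sets did not move alike either. For SG 5 were higher and 2 lower (median 0.11), and for HF 3 were higher and 4 lower (median -0.10). Of 9 partners and relatives of Nrf2 (small Maf proteins, Bach1, Bach2, Nfe2l1, Nfe2l3, Cul3 and Sqstm1), 0 were called higher and 0 lower in SG than in IFE (2.54% and 6.96% of all genes). They were not unchanged as a group: 3 differences lay above 0 and 6 below, with a median of -0.51, beside -0.06 over all genes. Under quantile normalization that median was -0.18, beside 0.16. Nfe2l3, a relative of Nrf2, was called higher in HF than in IFE, by 1.13 ± 0.21 (limma adjusted p = 0.00452, and 0.94 without IFE replicate 1), and was lower in SG than in HF, at -1.09 ± 0.21. That last call was lost without SG replicate 2 (-0.98), under quantile normalization (-0.96), with the mean over probe sets (-0.99) and with a block for the last letter of each array name (-1.10, limma adjusted p = 0.0607), a letter from a to e that the labels do not explain and that is called the letter block below. Letters a, b and e stand on 1 array each (HF replicate 1, SG replicate 1 and IFE replicate 3). With the letter block those arrays do not bear on any difference. An effect of the letter and the loss of these arrays therefore cannot be told apart where a call was lost in that fit.

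Nrf2 binds the antioxidant response element, whose core TGACNNNGC was searched on both strands of RefSeq promoters (GRCm38.p6), from 250 bases before to 50 bases after the start site. A window was found for 57 of the 67 members, and 13 of them, 22.8%, held the core, beside 16.1% of the 11623 measured genes with a window. Of the members called in some comparison, 5 of 14 held it (35.7%), and of those called in none, 8 of 43 (18.6%). The stretches around the core in these 5 called members are shown so that the matched letters can be seen beside the values of these genes. No table tests a link between a match and a level. Each reads 5′ to 3′ on the strand of the gene, with the core in capitals, and where the core lies on the opposite strand the capitals show its complement.
Mgst1: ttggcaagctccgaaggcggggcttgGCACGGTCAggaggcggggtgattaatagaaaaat
Gsta3: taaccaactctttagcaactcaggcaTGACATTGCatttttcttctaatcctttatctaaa
Nfe2l2: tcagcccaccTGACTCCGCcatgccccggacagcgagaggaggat
Txnrd1: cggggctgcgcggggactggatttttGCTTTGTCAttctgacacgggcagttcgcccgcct
Txndc5: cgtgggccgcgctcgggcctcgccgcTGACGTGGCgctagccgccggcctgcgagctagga
The Mgst1 stretch is chr6:138140445-138140505 on the plus strand, with the capitals beginning 56 bases before the start site and the core on the opposite strand. That of Gsta3 is chr1:21240438-21240498, plus strand, 121 bases before, and that of Nfe2l2 is chr2:75704869-75704913, minus strand, 240 bases before. The Txnrd1 stretch is chr10:82859088-82859148, plus strand, 92 bases before, with the core on the opposite strand, and the Txndc5 stretch is chr13:38528018-38528078, minus strand, 138 bases before. These 5 genes did not share a direction: Mgst1 and Gsta3 were highest in SG, Txnrd1 and Txndc5 in HF, and Nfe2l2 in IFE. A match is a match of letters and shows no binding, and these data hold no measure of it.

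The glutathione peroxidases held the largest differences of the group. Gpx2, a selenium enzyme best known from the gut lining, had values of 9.50, 9.91 and 10.43 in SG, 9.89, 10.77 and 10.13 in HF, and 4.49, 5.31 and 5.98 in IFE. All 6 appendage arrays lay above all IFE arrays, and SG and HF overlapped. The difference was 4.69 ± 0.36 for SG against IFE, 25.7-fold (limma adjusted p = 9.6e-06), and 5.01 ± 0.36 for HF against IFE, 32.1-fold (limma adjusted p = 1.07e-05). SG against HF gave -0.32 ± 0.36 (limma adjusted p = 0.654). The IFE values lay below the median of all genes on those arrays (7.30 to 7.50), and whether the probe set was above background there is unknown, so these folds are ratios of the deposited intensities and not of RNA amounts. The same holds below for other values under the median of their array. Among them are the IFE values of Gpx3, Gpx4, Gsta3, Gstz1 and Gstm2 and the SG values of Gpx3. The HF values of Gpx4, Gstz1, Gstm2 and, on some arrays, Gsta3 also lie there. Both Gpx2 calls rest on 1 probe set, and both held under all 22 alternatives tried.

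Gpx4, which reduces lipid hydroperoxides inside membranes, was graded over the compartments. Its log2 intensity was 7.58, 7.57 and 7.64 in SG, 6.24, 6.93 and 6.21 in HF, and 5.41, 5.77 and 5.39 in IFE. No group overlapped another. SG exceeded IFE by 2.08 ± 0.21, 4.21-fold (limma adjusted p = 6.6e-05), and HF by 1.14 ± 0.21 (limma adjusted p = 0.00581), while HF against IFE gave 0.94 ± 0.21 (limma adjusted p = 0.0128). Its 2 probe sets gave 1.38 and 2.77 for SG against IFE, the brighter the smaller. The SG against HF call was lost with the brightest probe set (0.89) and with the letter block (1.04, limma adjusted p = 0.111).

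Gpx3, the secreted peroxidase of plasma, was highest in HF, with 7.51, 7.76 and 7.74 against 6.86, 6.45 and 6.87 in SG and 6.30, 6.47 and 6.60 in IFE. Every HF array lay above all others. HF exceeded IFE by 1.22 ± 0.18 (limma adjusted p = 0.000927), and 5 of 5 probe sets were higher. SG against HF gave -0.94 ± 0.18 (limma adjusted p = 0.00633) and passed the size threshold without HF replicate 1 (-1.02), without SG replicate 1 (-1.01) and without SG replicate 3 (-1.01). Gpx1, the abundant cytosolic peroxidase, ran the other way, with 10.20, 11.47 and 10.33 in HF against 11.66, 12.13 and 12.00 in IFE and 11.16, 11.54 and 12.30 in SG. HF replicate 2 was more than 1 log2 unit above its replicates, and it is the HF array with the highest sebocyte and suprabasal values. HF was lower than IFE, at -1.26 ± 0.35 (limma adjusted p = 0.0338) at 7 of 7 probe sets. The Gpx1 call was lost without HF replicate 1 (-1.03, limma adjusted p = 0.149), HF replicate 3 (-1.09, 0.135), IFE replicate 2 (-1.16, 0.128) or IFE replicate 3 (-1.22, 0.104). It was also lost under quantile normalization (-1.02, limma adjusted p = 0.0671) and the letter block (-0.99, 0.263). SG against HF gave 1.00 ± 0.35 (limma adjusted p = 0.101), which became 1.40 (limma adjusted p = 0.017) without HF replicate 2. Gpx5, Gpx6, Gpx7 and Gpx8 were called in no comparison.

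**Figure D3:**
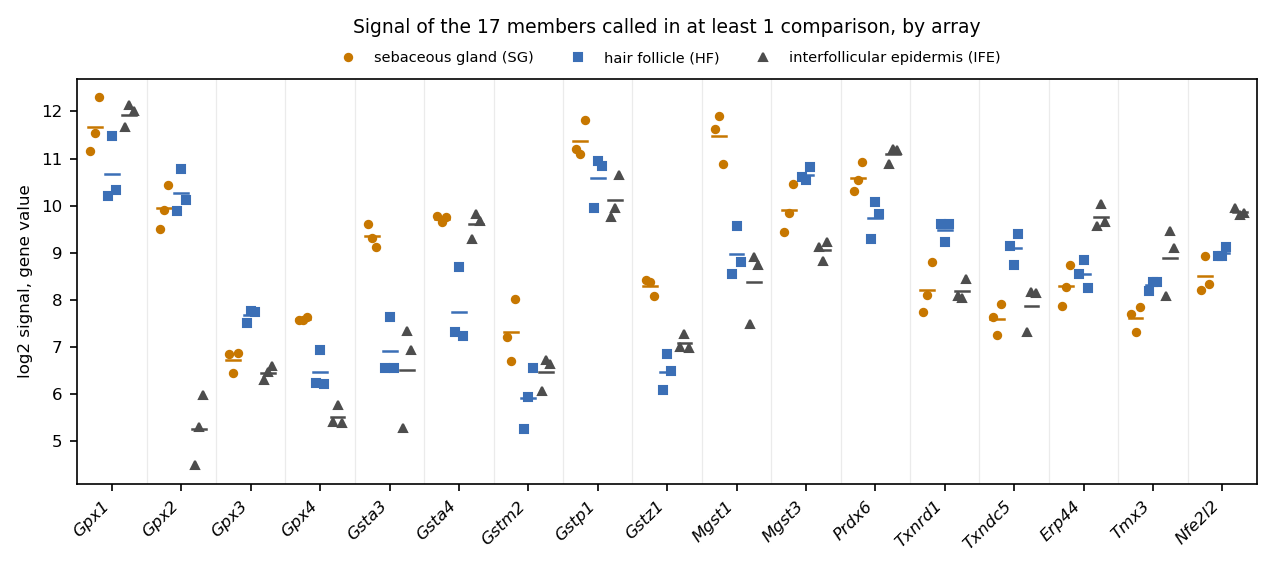
Log2 intensity (y axis) of the 17 called members on each of the 9 arrays, in replicate order from left to right within a compartment, with the group mean as a line. Gpx2 lies between 9.50 and 10.77 in SG and HF and between 4.49 and 5.98 in IFE, and HF replicate 2 (the middle square) lies above its replicates for Gpx1, Gsta4, Gsta3 and Mgst1.

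The glutathione transferases that were called between SG and HF were all higher in SG, and those called between SG and IFE likewise. Mgst1, a membrane-bound transferase with peroxidase activity towards oxidised lipids, had values of 11.62, 11.91 and 10.89 in SG, 8.56, 9.57 and 8.81 in HF, and 7.48, 8.90 and 8.73 in IFE. The SG arrays lay above the rest, SG replicate 3 lowest among them, and HF and IFE overlapped. SG exceeded IFE by 3.11 ± 0.39, 8.61-fold (limma adjusted p = 0.000232), and HF by 2.50 ± 0.39, 5.64-fold (limma adjusted p = 0.0022). All 6 probe sets were higher in SG than in IFE, from 0.97 to 3.51. With the letter block the difference from HF was 2.21 (limma adjusted p = 0.0575).

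Gsta3, an alpha class transferase that also isomerises steroids, had 9.60, 9.32 and 9.13 in SG, 6.56, 7.64 and 6.56 in HF, and 5.28, 7.34 and 6.93 in IFE. SG was again above all other arrays, and IFE replicate 1 was the lowest of the 9. The excess was 2.83 ± 0.45 over IFE, 7.13-fold (limma adjusted p = 0.00106), and 2.43 ± 0.45 over HF, 5.4-fold (limma adjusted p = 0.00573). At all 8 probe sets SG was higher than both, by 1.98 to 4.25 over IFE and by 1.53 to 3.70 over HF. With the letter block the difference from HF was 2.13 (limma adjusted p = 0.103). Gstz1, the zeta class enzyme of tyrosine breakdown, had 8.43, 8.39 and 8.08 in SG, 6.09, 6.86 and 6.49 in HF, and 7.00, 7.27 and 6.98 in IFE. The 3 groups did not overlap, with HF lowest. HF against IFE was not called, at -0.60 ± 0.21 (limma adjusted p = 0.0884), with 3 probe sets higher, 5 lower and the brightest at 0.22. SG exceeded HF by 1.82 ± 0.21 (limma adjusted p = 0.000514) at 8 of 8 probe sets and IFE by 1.22 ± 0.21 (limma adjusted p = 0.00177) at 7 of 8.

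Gsta4, which conjugates the lipid peroxidation product 4-hydroxynonenal, was set apart by low values in HF. It had 7.32, 8.70 and 7.23 there, against 9.77, 9.65 and 9.75 in SG and 9.30, 9.83 and 9.67 in IFE. SG and IFE overlapped and HF lay below both, with HF replicate 2 nearest to them, as for Gpx1. HF was lower than IFE, at -1.85 ± 0.32 and 3.61-fold (limma adjusted p = 0.00294), and SG exceeded HF by 1.97 ± 0.32, 3.93-fold (limma adjusted p = 0.00295). All 7 probe sets shared both directions. With the letter block these became -1.60 (limma adjusted p = 0.074) and 1.74 (0.0675), so neither was called there.

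Gstp1, the pi class enzyme, had 11.21, 11.09 and 11.81 in SG against 9.76, 9.96 and 10.65 in IFE, with HF between them at 9.95, 10.94 and 10.84. SG and IFE did not overlap, and HF overlapped IFE. SG exceeded IFE by 1.25 ± 0.31 (limma adjusted p = 0.0134) on 1 probe set. The call was lost without IFE replicate 2 (1.17, limma adjusted p = 0.0584) and with array weights (0.98). Gstm2, a mu class enzyme on 2 probe sets, had 7.21, 6.71 and 8.02 in SG, 5.27, 5.93 and 6.55 in HF and 6.06, 6.72 and 6.64 in IFE. Its SG arrays lay above the HF arrays by a narrow gap. The difference of 1.40 ± 0.36 (limma adjusted p = 0.0311) was lost without SG replicate 1 (1.45, limma adjusted p = 0.0686), SG replicate 3 (1.04, 0.0738), HF replicate 1 (1.07, 0.127) or HF replicate 2 (1.40, 0.0742). Other settings that ended it were the brightest probe set (1.08, limma adjusted p = 0.158), array weights (1.07, 0.0641), the letter block (1.12, 0.0607) and a fit of the 2 groups alone (1.40, 0.0551).

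Mgst3, a microsomal relative of Mgst1, showed another order of the compartments. Its values were 10.60, 10.55 and 10.83 in HF, 9.44, 9.85 and 10.45 in SG and 9.13, 8.83 and 9.22 in IFE. The groups did not overlap, and SG replicate 3, the SG array with the most hair signal, was nearest to HF. HF exceeded IFE by 1.60 ± 0.24, 3.03-fold (limma adjusted p = 0.00102), at 5 of 5 probe sets, and this call held under all 22 alternatives. SG against IFE gave 0.86 ± 0.24 (limma adjusted p = 0.0232), and 1.09 without SG replicate 1. SG against HF gave -0.74 ± 0.24 (limma adjusted p = 0.0764), and -1.01 (limma adjusted p = 0.00805) without SG replicate 3. Of the 18 soluble transferases, 3 were called higher and 0 lower in SG than in IFE (2.54% and 6.96% of all genes), 0 and 1 in HF against IFE (2.96% and 3.36%), and 4 and 0 in SG against HF (1.81% and 3.3%). Their median difference between SG and HF was 0.30, beside -0.02 over all genes, with 15 above 0 and 3 below.

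**Figure D4:**
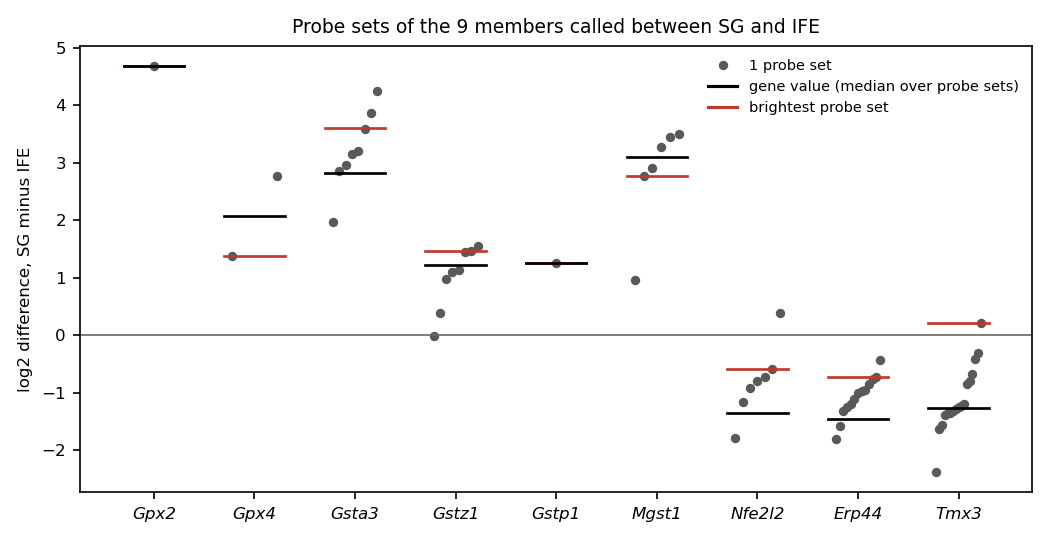
Log2 difference of each probe set between SG and IFE (points) for the 9 members called between them, with the gene value (black line) and the brightest probe set (red line). Gsta3, Mgst1, Gpx4 and Erp44 have all probe sets on 1 side of 0, while Nfe2l2 runs from -1.79 to 0.38 and the brightest probe set of Tmx3 lies at 0.21.

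The genes of glutathione synthesis and recycling were called in no comparison. Gclc, the catalytic subunit of the rate-limiting ligase, gave 0.75 ± 0.26 for HF against IFE (limma adjusted p = 0.0842), with 16 of 16 probe sets above 0 and arrays at 8.29, 8.45 and 8.35 in HF against 7.11, 7.74 and 8.01 in IFE. Those arrays did not overlap. SG against IFE gave 0.23 ± 0.26 for Gclc, 0.40 ± 0.26 for its modifier subunit Gclm, 0.21 ± 0.18 for Gss and -0.08 ± 0.21 for Gsr. A missed threshold does not show equal levels.

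Of 17 measured genes that supply cysteine or break glutathione down, 4 were called higher and 2 lower in HF than in IFE (2.96% and 3.36% of all genes) and 1 and 1 in SG against IFE (2.54% and 6.96%). For SG against HF, 0 were called higher and 3 lower (1.81% and 3.3%), with 6 differences above 0 and 11 below and a median of -0.42, beside -0.02 over all genes. Slc7a11, the cystine importer, had 8.15, 8.20 and 8.16 in HF, 7.54, 7.37 and 7.50 in IFE and 6.71, 6.59 and 6.85 in SG. No group overlapped another, and SG was lower than HF, at -1.45 ± 0.15 (limma adjusted p = 0.000324). Chac1, which cleaves glutathione inside the cell, had 10.09, 10.57 and 10.27 in HF, against 7.39, 7.11 and 8.00 in SG and 7.57, 7.46 and 7.49 in IFE. HF exceeded IFE by 2.81 ± 0.23 (limma adjusted p = 1.97e-05). Anpep, a peptidase that acts on the dipeptide left when glutathione is split outside the cell, was higher than in IFE by 1.78 ± 0.18 in HF (limma adjusted p = 7.46e-05) and by 1.02 ± 0.18 in SG (0.00184). The SG value fell below 1 without SG replicate 2 (0.93) and without IFE replicate 1 (0.90). Ggct, which releases oxoproline from gamma-glutamyl amino acids, was lower in both appendages than in IFE, at -1.39 ± 0.19 in SG (limma adjusted p = 0.000374) and -1.41 ± 0.19 in HF (0.000448). Cth, which makes cysteine from cystathionine, was lower in SG than in HF, at -1.75 ± 0.34 (limma adjusted p = 0.00773), but its brightest probe set gave 0.21.

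Of 12 measured genes that supply or make NADPH, the reductant of glutathione and thioredoxin reductases, 4 were called higher and 0 lower in SG than in IFE (2.54% and 6.96% of all genes). The counts were 2 and 0 for HF against IFE (2.96% and 3.36%) and 2 and 0 for SG against HF (1.81% and 3.3%). Their medians were 0.40, 0.25 and 0.29, beside -0.06, -0.07 and -0.02 over all genes. Idh1, the cytosolic isocitrate dehydrogenase, had 11.36, 11.10 and 10.37 in SG, 9.73, 9.86 and 9.71 in HF and 7.86, 8.80 and 8.76 in IFE. The groups did not overlap, and SG exceeded IFE by 2.47 ± 0.29 (limma adjusted p = 0.000153). Its SG against HF difference, 1.17 ± 0.29 (limma adjusted p = 0.0238), was lost without any 1 of SG replicates 1 and 2 and HF replicates 1 to 3, with adjusted p from 0.0522 to 0.0913. Without IFE replicate 1 its HF against IFE difference went from 1.29 to 0.98. Nadk, which makes NADP, was higher in SG than in IFE by 1.27 ± 0.18 (limma adjusted p = 0.000488). Me2, the mitochondrial malic enzyme, was higher than in IFE by 1.48 ± 0.25 in SG (limma adjusted p = 0.00141) and by 2.23 ± 0.25 in HF (0.00014). G6pdx and Me1 were not analysed here.

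The peroxiredoxins were called once, lower in HF than in IFE, beside 3.36% of all genes called in that direction. Prdx6, which uses glutathione and repairs oxidised phospholipids, had 9.29, 10.07 and 9.83 in HF, 10.32, 10.55 and 10.92 in SG and 10.89, 11.21 and 11.17 in IFE. HF lay below all other arrays, and SG overlapped IFE. HF was 2.57-fold lower than IFE, at -1.36 ± 0.23 (limma adjusted p = 0.00218), at 6 of 6 probe sets. SG against HF gave 0.87 ± 0.23 (limma adjusted p = 0.0327), and 1.04 without HF replicate 2 and 1.01 without SG replicate 1.

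Prdx5, a peroxiredoxin of mitochondria and peroxisomes, came close to the size threshold against both appendages. It had 11.05, 10.96 and 11.42 in SG, 10.89, 11.32 and 11.08 in HF and 11.97, 12.08 and 12.09 in IFE. All IFE arrays were above all others. The differences were -0.90 ± 0.18 for SG (limma adjusted p = 0.00431, and -1.04 without SG replicate 3) and -0.95 ± 0.18 for HF (0.00503, and -1.06 without HF replicate 2), with 6 of 6 probe sets lower each time. For Prdx2, on 1 probe set, SG against HF gave -0.75 ± 0.21 (limma adjusted p = 0.0385). Prdx1, Prdx3 and Prdx4 lay between -0.40 and 0.35 over the 3 comparisons, with limma adjusted p of 0.295 or above. Srxn1, the sulfiredoxin that repairs overoxidised peroxiredoxins, gave -0.46 ± 0.17 for SG against IFE (limma adjusted p = 0.0768).

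In the thioredoxin system the cytosolic reductase Txnrd1 was higher in HF. Its values were 9.61, 9.22 and 9.60 in HF, 7.74, 8.10 and 8.80 in SG and 8.09, 8.05 and 8.45 in IFE. HF lay above all other arrays, SG and IFE overlapped, and SG replicate 3 was the SG array nearest to HF. HF exceeded IFE by 1.28 ± 0.25, 2.43-fold (limma adjusted p = 0.00596), and SG was lower than HF, at -1.27 ± 0.25 (limma adjusted p = 0.00822). All 18 probe sets had the same direction in both comparisons, from 0.16 to 2.96 for HF against IFE. With the letter block SG against HF gave -0.96 (limma adjusted p = 0.0947). The mitochondrial thioredoxin Txn2 (0.40 ± 0.24 for SG against IFE, -0.17 ± 0.24 for HF against IFE), the mitochondrial reductase Txnrd2 (0.12 ± 0.23 and 0.45 ± 0.23) and the thioredoxin inhibitor Txnip (0.14 ± 0.23 and -0.03 ± 0.23) were not called.

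Among 14 proteins with a thioredoxin domain, many of them resident in the endoplasmic reticulum where disulfide bonds form, 0 were called higher and 2 lower in SG than in IFE (2.54% and 6.96% of all genes), and 11 of 14 differences were below 0 (median -0.42, beside -0.06 over all genes, and -0.14 beside 0.16 under quantile normalization). Txndc5, a disulfide isomerase of that compartment, had 9.15, 8.75 and 9.40 in HF, 7.63, 7.26 and 7.92 in SG and 7.31, 8.16 and 8.14 in IFE. HF was above all other arrays. It exceeded IFE by 1.23 ± 0.27 (limma adjusted p = 0.0105) at 14 of 14 probe sets, and SG was lower than HF, at -1.49 ± 0.27 (limma adjusted p = 0.0047) at 13 of 14. The call against IFE was lost without HF replicate 3 (1.08, limma adjusted p = 0.0584) and without IFE replicate 1 (0.95, 0.0234).

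Erp44, which retains oxidases and client proteins in the early secretory pathway, was higher in IFE. It had 9.56, 10.04 and 9.66 there, 7.87, 8.28 and 8.74 in SG and 8.55, 8.84 and 8.26 in HF. IFE lay above all other arrays, and SG and HF overlapped. The differences were -1.46 ± 0.24 for SG (limma adjusted p = 0.00142) and -1.20 ± 0.24 for HF (0.00691), at 13 of 13 probe sets each. The brightest probe set gave -0.73 and -0.58, short of 1 in both, and HF gave -0.96 under quantile normalization and -1.25 (limma adjusted p = 0.0581) with the letter block. Tmx3, a membrane-bound disulfide isomerase, had 7.70, 7.32 and 7.84 in SG against 8.09, 9.47 and 9.11 in IFE, with HF at 8.18, 8.39 and 8.39. SG lay below IFE without overlap. The difference of -1.27 ± 0.30 (limma adjusted p = 0.00964) held its sign at 16 of 17 probe sets, but the exception was the brightest, at 0.21. The value was -0.98 without IFE replicate 2, -0.96 under quantile normalization and -1.21 (limma adjusted p = 0.0553) with the letter block.

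The superoxide dismutases, Nqo1 and Hmox1 were called in no comparison. Hmox1, which degrades heme, had 6.85, 7.16 and 6.59 in SG, 7.69, 7.25 and 7.68 in HF and 7.58, 7.55 and 8.00 in IFE. The SG arrays were the 3 lowest, and SG against IFE gave -0.84 ± 0.21 (limma adjusted p = 0.0141) with 9 of 9 probe sets below 0. Sod3, the extracellular dismutase, gave -0.96 ± 0.22 for HF against IFE (limma adjusted p = 0.0144), from 6.46, 6.14 and 5.75 in HF and 6.69, 7.30 and 7.24 in IFE. Those groups did not overlap, and the difference was -1.13 without HF replicate 1 and -1.16 without IFE replicate 1. The 4 probe sets of Sod3 did not move alike: 3 were lower and 1 higher, from -1.8 to 0.56, and the brightest gave 0.56. Sod2, the mitochondrial dismutase, gave -0.25 ± 0.24 for SG and -0.23 ± 0.24 for HF against IFE. Nqo1, a quinone reductase and a standard target of Nrf2, gave 0.23 ± 0.29 and 0.22 ± 0.29, from dim values of 5.83 to 7.09 over the 9 arrays.

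Of 27 other redox genes measured, 2 were called higher and 4 lower in SG than in IFE (2.54% and 6.96% of all genes), 3 and 2 in HF against IFE (2.96% and 3.36%), and 3 and 3 in SG against HF (1.81% and 3.3%). Their medians were -0.15, -0.10 and -0.05, beside -0.06, -0.07 and -0.02 over all genes. Catalase (Cat), the peroxisomal enzyme that splits hydrogen peroxide, had 10.41, 10.59 and 9.99 in SG, 8.02, 9.11 and 8.33 in HF and 8.20, 8.56 and 8.83 in IFE. The SG arrays lay above all others, by 1.80 ± 0.28 over IFE (limma adjusted p = 0.00088) and by 1.84 ± 0.28 over HF (0.00193). Glutaredoxin (Glrx), which removes glutathione from proteins, was lower than in IFE, at -1.57 ± 0.20 in SG (limma adjusted p = 0.000277) and -1.86 ± 0.20 in HF (0.000123). Its brightest probe set gave -0.76 for SG. Ero1a, the oxidase that drives disulfide formation, was lower in SG than in HF, at -1.92 ± 0.24 (limma adjusted p = 0.000638). Msrb3, a methionine sulfoxide reductase, was higher than in IFE by 1.38 ± 0.19 in SG (limma adjusted p = 0.000469) and by 1.56 ± 0.19 in HF (0.000265).

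Of 14 genes of selenium use and selenoproteins, 1 was called higher and 0 lower in SG than in IFE (2.54% and 6.96% of all genes). The counts were 0 and 0 for HF against IFE (2.96% and 3.36%) and 1 and 0 for SG against HF (1.81% and 3.3%). Their medians were -0.10, -0.11 and 0.17, beside -0.06, -0.07 and -0.02 over all genes. The gene called was Selenos, of the endoplasmic reticulum, higher in SG than in IFE by 1.16 ± 0.22 (limma adjusted p = 0.00325) and than in HF by 1.25 ± 0.22 (0.00446). Its brightest probe set gave 0.73 and 0.69, and the mean over probe sets 0.78 and 0.90. With the letter block both calls were lost as well (1.13, limma adjusted p = 0.0549, and 1.17, 0.0883). Of 21 genes of drug metabolism and export, 0 were called higher and 1 lower in SG than in IFE (2.54% and 6.96% of all genes). The counts were 0 and 1 for HF against IFE (2.96% and 3.36%) and 1 and 0 for SG against HF (1.81% and 3.3%). Medians of this list were 0.22, -0.19 and 0.19 in that order. The gene called lower against IFE was the exporter Abcc5 both times, at -1.99 ± 0.16 for SG (limma adjusted p = 1.42e-05), with -0.32 at its brightest probe set. Between SG and HF the alcohol dehydrogenase Adh7 was called higher in SG (1.74 ± 0.45, limma adjusted p = 0.0301), a call lost without SG replicate 2 or 3 or HF replicate 1 or 3, with adjusted p from 0.0705 to 0.135. Of 8 oxidant-producing genes, 3 were called lower and 0 higher in SG against IFE (6.96% and 2.54% of all genes), and 2 and 0 in HF against IFE (3.36% and 2.96%). In each comparison 4 of the 8 differences lay above 0 and 4 below, with medians of -0.24 and -0.04. The calls for SG were xanthine dehydrogenase (Xdh, -1.58 ± 0.21, limma adjusted p = 0.000374) and the monoamine oxidases Maoa (-1.13 ± 0.30, 0.0199) and Maob (-1.40 ± 0.41, 0.03). The Maoa call was lost without IFE replicate 2 (-0.94) or 3 (-0.97), and the Maob call without SG replicate 1 (-1.47, limma adjusted p = 0.056) or 3 (-1.14, 0.0821) or IFE replicate 2 (-1.10, 0.133) or 3 (-1.21, 0.111).

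**Figure D5:**
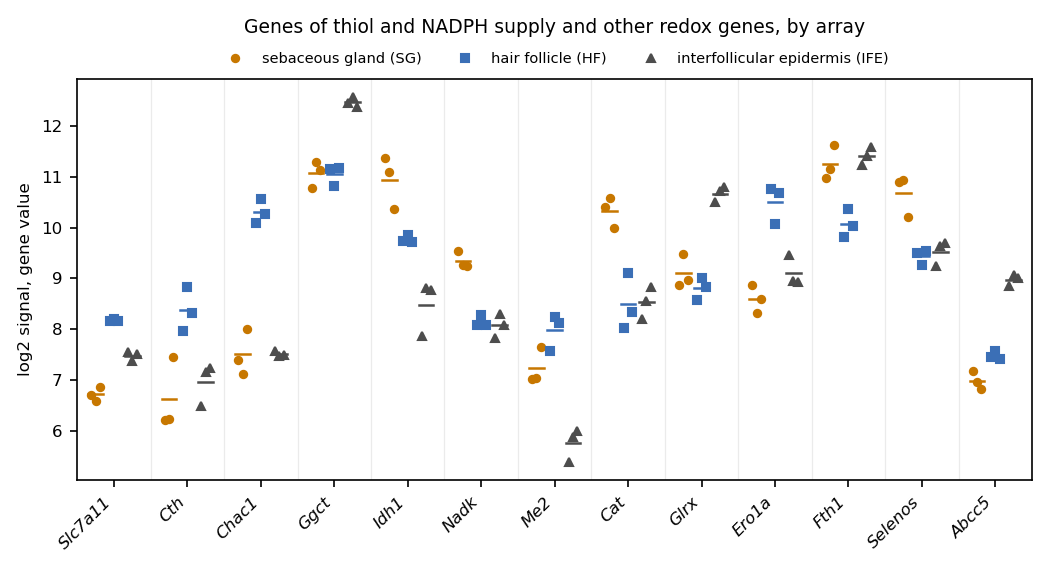
Log2 intensity (y axis) of 13 genes from the pathway lists on each of the 9 arrays, in replicate order within a compartment, with the group mean as a line. Chac1 lies between 10.09 and 10.57 in HF and at 8.00 or below elsewhere, and Cat lies at 9.99 or above in SG and at 9.11 or below elsewhere.

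Of the members in all, 16 had a mean log2 intensity under 7 in every compartment, and 0 of these were called. Such dim values were found for 28.7% of all genes, and how many of those were called was not counted. Over the 50 members called in no comparison and the calls not made for the rest, differences ran from -1.27 to 1.00. In groups that did not overlap, 11 members were higher and 9 lower in SG than in IFE, beside 13.2% and 21.7% of all genes. The counts were 8 and 11 for HF against IFE (13.5% and 19.3%) and 13 and 10 for SG against HF (12.1% and 17.2%). The median SE of a log2 difference was 0.23 for the members and 0.21 for all genes.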

How the data were processed

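The authors deposited 1 linear intensity for each of 154736 probe sets on 9 mouse exon arrays. The submitters' processing notes name RMA, Affymetrix Power Tools and build mm9. Their versions, their roles and any filter on probe sets were not stated there. Array medians ran from 176 to 234, and no detection calls were used, so signal over background is unknown. Values were taken to log2 with no pseudocount. The 146964 probe sets with 1 symbol in the platform annotation (1060 had several, 6712 none) gave 14507 genes, a gene being the median of its probe sets. Symbols were updated for 1754 genes through RefSeq (GRCm38.p6), where 14472 were found, so coordinates are those of RefSeq alone. limma 3.58.1 in R 4.3.3 (lmFit, contrasts, eBayes) was fitted to all 9 arrays with 1 mean per compartment and tested on simulated data. The members, gene lists and thresholds were chosen with earlier results of these data known. The text names every called member, the central enzymes whatever their values, and for each pathway list at most 3 called genes per comparison, by p, with at most 2 more that went the other way. The 22 alternatives changed the normalization, the probe set summary, the filter on dim genes, the variance model, the threshold, a block or the arrays used. Titles give the same replicate numbers in each compartment, and deviations of same-numbered arrays correlated at -0.019 to 0.225. Differently numbered arrays were not compared in this way, so these values cannot decide whether the numbers mark pairs. The main fit did not take them as pairs.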

Additional observations from a re-analysis of the deposited data

How the results depend on the processing

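Of the 26 calls of members, 7 held under all 22 alternatives that kept the gene (Gpx2 in both comparisons with IFE, Gpx4, Mgst1 and Gsta3 for SG against IFE, Mgst3 for HF against IFE and Gstz1 for SG against HF), 12 under all but the log2 threshold of 1.5, and 21 when any 1 array was left out. For members lower in SG than in IFE, 3 as reported, the count was 1 under quantile normalization, 0 with the brightest probe set, 6 with no minimum difference and 0 at 1.5. The all-gene count, 1009 as reported, was 474, 1123, 2291 and 316 in these settings. For members higher in HF than in IFE the count went from 5 to 2 at 1.5, and for all genes from 429 to 229. For members lower in HF than in IFE the count went from 4 to 2 under quantile normalization, 7 with array weights and 8 with no minimum. It was 1 at 1.5 and 1 with the letter block. The all-gene count went from 487 to 354, 699, 1052, 191 and 257 in these settings. For members higher in SG than in HF the count went from 6 to 3 without the dimmer 50% of genes, which drops Gpx4, Gstz1 and Gstm2. With the letter block it was 1. The all-gene count went from 262 to 182 (of the 7254 brighter genes) and to 119. For members lower in SG than in HF the count went from 2 to 4 with no minimum, 0 at 1.5 and 1 with the letter block. It ran from 2 to 4 when 1 array was left out, with 4 without SG replicate 3. The all-gene count went from 479 to 900, 188 and 273, and was 693 without SG replicate 3. With the replicate block the member counts were 6, 3, 5, 4, 6 and 2, as reported, so that fit changed no member count. The letter block ended 10 calls, in a fit where SG replicate 1, HF replicate 1 and IFE replicate 3 do not bear on the differences. Among the calls, the brightest probe set turned the sign of Tmx3 (0.21) and, of the pathway genes, Cth (0.21), and the causes were not tested. Of 41 calls of the 23 pathway genes that the naming rule or the text picked, 17 held under all but the stricter threshold. Quantile normalization moved the median difference of all genes between SG and IFE from -0.06 to 0.16 and the share of calls that were higher from 26.7% to 56.4% (members 8 higher and 1 lower). For HF against IFE the share went from 46.8% to 58.3%, and for SG against HF from 35.4% to 50.4%, with the median going from -0.02 to 0.13.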
